A study of Saccharomyces cerevisiae with 4 samples.

Results

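The proteasome genes of budding yeast form a set of 34 among the 6706 reading frames listed for each library. They were chosen by name. PRE1 to PRE10, PUP1 to PUP3 and SCL1 make up the core particle with 14 subunits. RPT1 to RPT6 with RPN1, RPN2, RPN10 and RPN13 make up the base with 10 subunits. RPN3, RPN5 to RPN9, RPN11, RPN12 and SEM1 make up the lid with 9 subunits, and RPN4 is the transcription factor of the set rather than a subunit. All 34 names were found in the tables and in the R64 reference annotation, and all 34 passed the filter on low counts.

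The study compared a W-303 strain from whose chromosome III the tRNA genes had been removed (tDNA-less, JKY690) with a wild-type W-303 strain (JRY2334), with 2 biological replicate libraries of each. Both strains are MATa and carry the alleles ade2-1, trp1-1 and ura3-1. The tDNA-less label adds 9 numbered deletions on chromosome III, of which the pair t8D and t9D is replaced by LEU2, and an insertion of HIS3 at T1 and T7. The wild-type label instead adds mutant alleles of LEU2 and HIS3 and the allele can1-100. The strains therefore differ in markers as well as in tRNA genes, and each group is a single strain. Untreated cultures in rich medium (YPD) were taken in early log phase, and total RNA was made into directional libraries.

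The proteasome is the protease that degrades proteins tagged with ubiquitin. Its barrel-shaped core holds the protease sites inside rings of beta subunits, and rings of alpha subunits close its ends. A regulatory particle caps the core: the ATPases of the base unfold the substrate, and the lid removes its ubiquitin chain. In budding yeast the genes of all these parts are activated by Rpn4, a short-lived protein that the proteasome itself degrades, through a promoter sequence called the proteasome-associated control element.

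That element, GGTGGCAAA, was searched on both strands in the 250 bases before and the 50 bases after each start codon of the R64 genome. The element is named after the proteasome, so its counts are given as a description. It was found in 27 of the 34 windows of proteasome genes, against 72 of 6001 windows of all nuclear protein-coding genes (1.20%) and 45 of the 5967 windows of other genes (0.754%). Of those 45 other windows, 7 held the very same match as a proteasome gene, because neighbouring genes share the stretch between them. The 8-base end GTGGCAAA, which lies within the longer word, was found in 30 of the 34 windows and in 144 of 6001 windows (2.40%). The sites below were chosen to show the element in RPN5 and PRE3, which had the largest positive differences between the strains among genes with the element, in PUP3, which had the most negative one, in RPT6, where it lies nearest the start codon, in SCL1 on the opposite strand, and in PRE5 in its shorter form. Each is printed on the strand of the gene with the match in capitals.
RPN5, chrIV:190766-190814, plus strand: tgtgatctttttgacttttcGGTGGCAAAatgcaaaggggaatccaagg
PRE3, chrX:435025-435073, plus strand: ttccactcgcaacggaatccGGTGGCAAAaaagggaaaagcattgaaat
PUP3, chrV:349501-349549, minus strand: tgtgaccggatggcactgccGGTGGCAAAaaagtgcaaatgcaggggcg
RPT6, chrVII:411342-411390, minus strand: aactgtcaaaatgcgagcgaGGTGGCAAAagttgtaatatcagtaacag
SCL1, chrVII:475327-475375, minus strand: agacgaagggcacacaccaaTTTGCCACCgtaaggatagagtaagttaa
PRE5, chrXIII:901543-901590, plus strand: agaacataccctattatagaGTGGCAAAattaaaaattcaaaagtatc

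The first base of the 9-base element lay 84 to 183 bases before the start codon in these 27 genes, with a median of 120 bases, and each window held a single copy. It stood on the strand of the gene in 19 of them and on the opposite strand in 8. By subcomplex, it was found in 6 of 7 alpha genes, 6 of 7 beta genes, 6 of 6 ATPase genes, 2 of 4 genes of the base scaffolds and ubiquitin receptors, and 7 of 9 lid genes. PRE5, PUP1 and RPN8 held the 8-base end alone. RPN10, RPN13, SEM1 and RPN4 held neither word in this window.

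**Figure D1:**
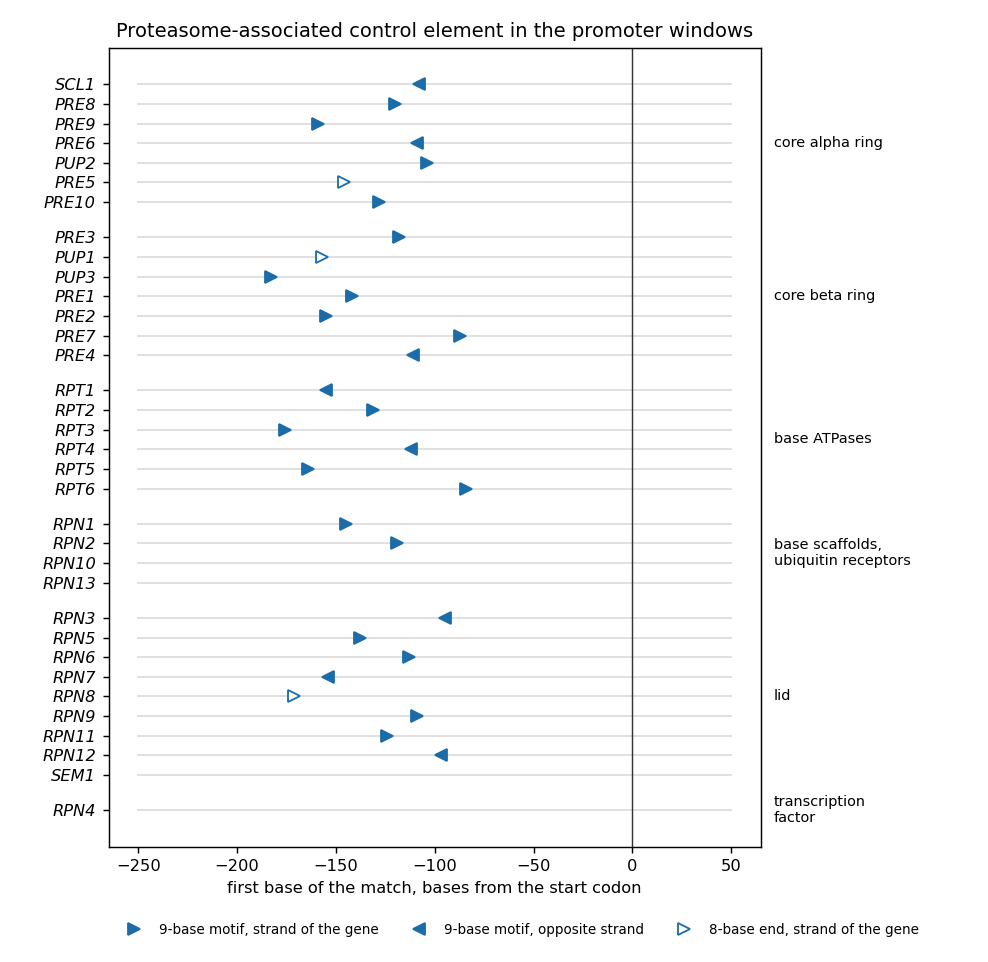
Position of the proteasome-associated control element in the promoter window of each of the 34 genes, in bases from the start codon at 0; filled triangles are the 9-base word, open triangles its 8-base end, pointing right on the strand of the gene and left on the opposite strand. The 27 filled triangles lie between 84 and 183 bases before the start codon, and RPN10, RPN13, SEM1 and RPN4 have none.

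The genes lie on 13 of the 16 nuclear chromosomes and 0 of them on chromosome III. PRE3 alone has more than 1 coding exon. A tRNA gene elsewhere in the genome lies 194 bases from RPT2, 306 bases from SEM1, 541 bases from RPN7 and 665 bases from PRE1, and the median distance over the 34 genes was 13798.5 bases. The label lists deletions of tRNA genes on chromosome III alone. It was read as numbering 9 of them, while the R64 annotation has 10 tRNA genes on that chromosome, and the difference was not resolved here. No 31-base word of any of the 34 reading frames was found in another of the 6004 reading frames that the reference shares with the tables, and the estimated counts of all 34 were whole in every library to within 0.001.

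Estimated counts summed to 12.94 M and 14.46 M in the libraries of the tDNA-less strain and to 12.48 M and 19.76 M in the wild-type libraries. A group of 4 reading frames took 36.07% to 45.09% of the counts in the tDNA-less libraries and 30.63% to 39.56% in wild type. HIS3, the marker inserted in the tDNA-less strain, had 403 and 462 CPM (counts scaled to library size with TMM factors) there, against 12.4 and 8.50 CPM in wild type. A single proteasome gene had between 469 and 7023 estimated counts in a library. The median gap between the replicate libraries of a strain was 0.08 (log2 CPM) for the 34 genes in the tDNA-less strain and 0.09 in wild type, against 0.13 in the tDNA-less strain and 0.14 in wild type for all 6205 reading frames tested. That comparison was not matched for level, and the subunits lay between the 75.4th and the 95.4th percentile of level. In bulk RNA, a change in the share of cells that express a gene and a change in RNA per cell cannot be told apart, and each CPM is relative to the other RNAs of its library.

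Levels between genes were compared as CPM per kb of effective length, the length over which a fragment can start. The 33 subunits were all well expressed: their mean levels over the 4 libraries lay between the 75.4th and the 95.4th percentile of all reading frames tested, whose median was 28.5 CPM per kb. Leaving out SEM1, the 32 other subunits lay between 78.1 and 270 CPM per kb, a 3.45-fold span. Their order hardly moved between libraries, with Spearman's rho of 0.973 to 0.979 over the 33 subunits for the 6 pairs of libraries, given as a description since the libraries share gene lengths and sequence.

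**Figure D2:**
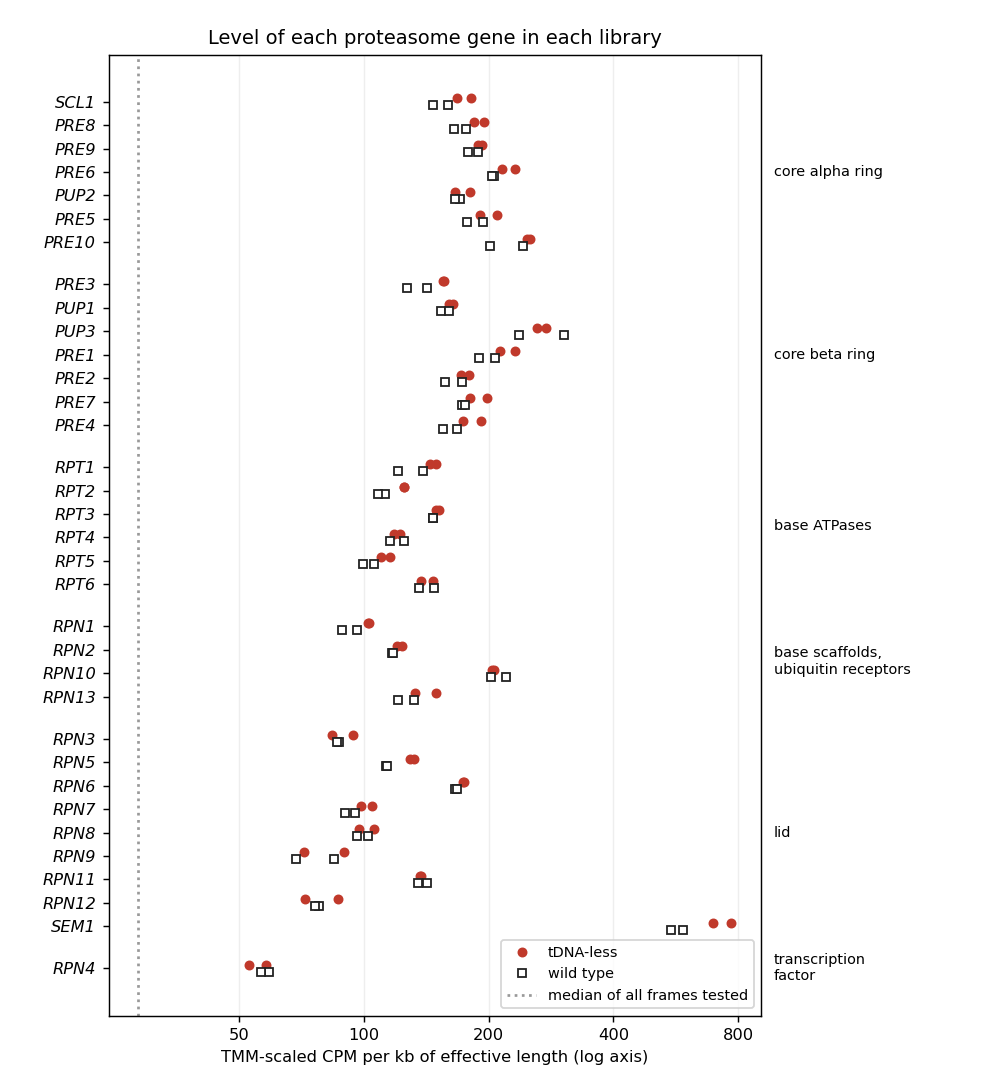
Level of each of the 34 proteasome genes in each library, in TMM-scaled CPM per kb of effective length on a log axis; red circles are the 2 tDNA-less libraries, open squares the 2 wild-type libraries, and the dotted line is the median of all reading frames tested at 28.5. SEM1 is the highest and RPN4 the lowest, and core genes lie above most ATPase and lid genes in both strains.

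The core rings were expressed at closely similar levels. Alpha genes averaged 200 ± 6.79 CPM per kb per subunit in the tDNA-less strain and 184 ± 4.01 in wild type (SD, n = 2 each). Beta genes averaged 194 ± 0.628 in the tDNA-less strain and 180 ± 13.9 in wild type. In the mean over the 4 libraries, the lowest level of the alpha ring was that of SCL1, the first alpha subunit, at 168 and 182 CPM per kb in the tDNA-less libraries and 159 and 147 in the wild-type libraries. PUP2 was lower than SCL1 in both tDNA-less libraries, at 166 and 181, and higher in wild type, at 170 and 166. The highest mean of the ring was that of PRE10, the last one, at 251 and 247 in the tDNA-less libraries and 201 and 242 in wild type. In the beta ring PRE3, the subunit with caspase-like activity, had the lowest mean and PUP3, a subunit without a protease site, the highest, at 261 and 276 CPM per kb in the tDNA-less libraries and 237 and 304 in wild type.

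Per kb of effective length, the regulatory particle averaged below the core. The size of that gap depends on the length used, since effective length cuts a larger share from a short reading frame. The 6 ATPase genes averaged 133 ± 1.24 CPM per kb in the tDNA-less strain and 125 ± 4.73 in wild type, between RPT5 (115 and 110 in the tDNA-less libraries, 99.7 and 106 in wild type) and RPT3 (152 and 150 in the tDNA-less libraries, 147 and 147 in wild type). Among the scaffolds and ubiquitin receptors of the base, RPN1 was lowest, at 103 and 102 CPM per kb in the tDNA-less libraries and 88.6 and 96.2 in wild type. RPN10, a ubiquitin receptor, was highest there, at 203 and 207 in the tDNA-less libraries and 202 and 220 in wild type. RPN13, with 471 coding bases, had an effective length of 276 and 301 bases in the tDNA-less libraries and 296 and 302 in wild type. Its rank beside RPN1 therefore depends on that estimate. In the lid RPN12 had the lowest mean over the 4 libraries, at 86.5 and 72.1 CPM per kb in the tDNA-less libraries and 77.7 and 76.3 in wild type. RPN9 lay close to it, at 89.3 and 71.8 in the tDNA-less libraries and 84.7 and 68.4 in wild type, and was the lower of the pair in replicate 2 of both strains.

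SEM1, which encodes a small acidic lid protein that also joins other complexes, stood apart at 770 and 697 CPM per kb in the tDNA-less libraries and 588 and 550 in wild type. Its reading frame has 270 bases, the shortest of the set, and its effective length was only 91.0 and 102 bases in the tDNA-less libraries and 99.0 and 103 bases in wild type, so its level per kb depends strongly on that estimate. Set against the core, the regulatory particle had 0.829 and 0.772 times the mean level per subunit in tDNA-less replicates 1 and 2, and 0.813 and 0.760 times in wild-type replicates 1 and 2. Without SEM1 these ratios were 0.655 and 0.621 in the tDNA-less libraries and 0.673 and 0.640 in the wild-type libraries. With SEM1 and per kb of coding length they were 0.793 and 0.741 in the tDNA-less libraries and 0.789 and 0.746 in wild type. The ratios of both strains overlapped in each form.

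Between the strains, 0 of the 34 proteasome genes were called by edgeR's quasi-likelihood test (adjusted p from 0.143 to 0.983), where 93 of 6205 reading frames tested were called, a background of 1.50%. DESeq2 called 0 of the 34, with a background of 1.89%, and limma on log2(TPM + 1) also called 0, with a background of 0.838%. At an unadjusted p under 0.05, 2 of the 34 passed in edgeR, SEM1 and RPN5, where 11.8% of all reading frames did. DESeq2 had 1 at that threshold, SEM1, where 7.80% of all did, and limma 0, where 10.1% did. With a block on replicate number edgeR called SEM1 alone of the 34 (adjusted p = 0.0391), where it called 4.54% of all reading frames. An exact permutation test of 2 against 2 libraries cannot give a two-sided p below 0.333, so these values come from the fitted model.

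The 95% intervals of the fold changes, which rest on a spread shared across reading frames, lay within 1.5-fold of no difference in either direction for 34 of the 34 genes. That share was not counted over all reading frames, so it is not read as particular to these genes. The median SE was 0.08 for the 34 genes and 0.12 for all reading frames tested, which were not matched to them for level. The lowest bound was 0.798-fold, for PUP3, and the highest 1.40-fold, for SEM1. Of the 34 intervals, 32 held 0 on the log2 scale.

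**Figure D3:**
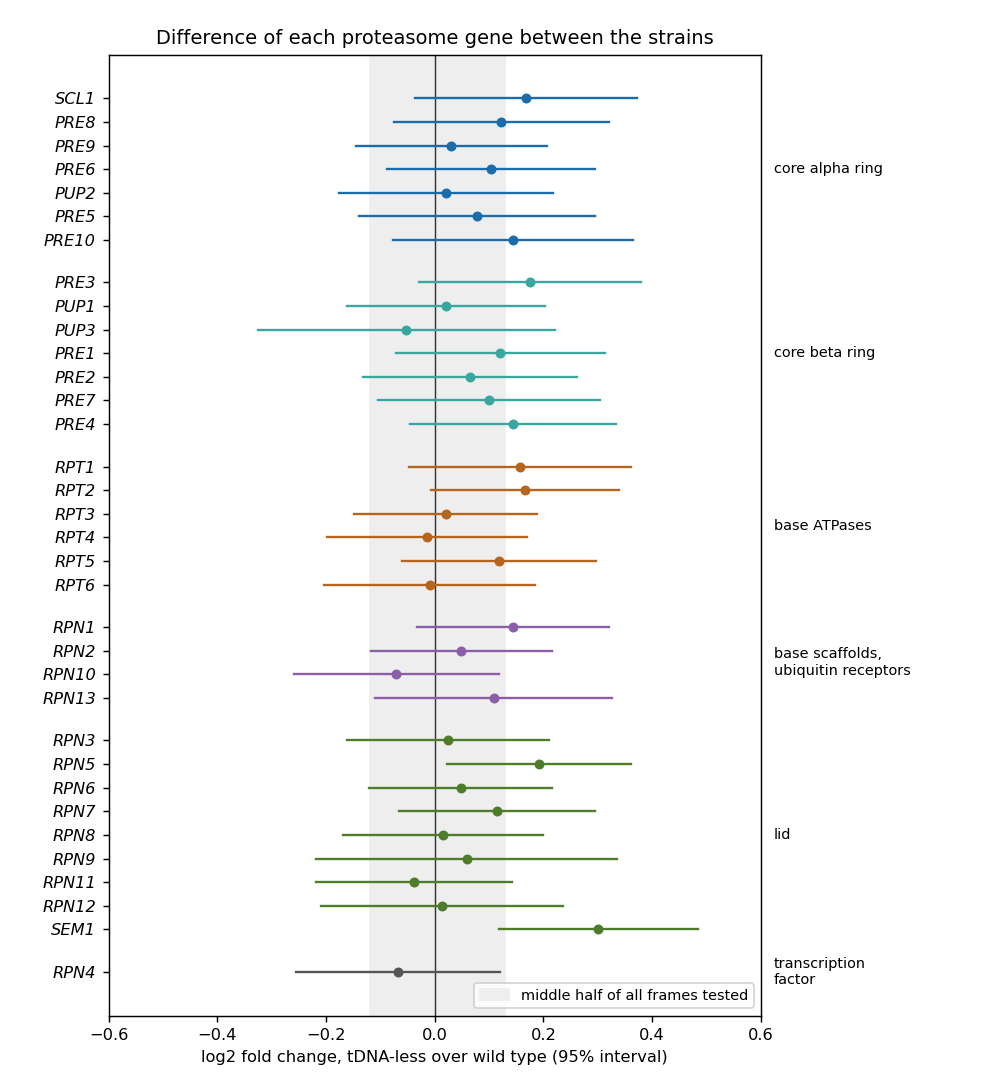
Log2 fold change, tDNA-less over wild type, of each of the 34 proteasome genes (points) with its 95% interval from edgeR's quasi-likelihood fit (lines); the grey band runs between the quartiles of all reading frames tested, from -0.12 to 0.13. The intervals of SEM1 and RPN5 lie above 0 and the other 32 hold it.

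Small differences leaned to one side. On the TMM scale, 28 of the 34 genes had a positive log2 fold change, where 50.6% of all reading frames tested did, while on the scale of the deposited TPM values 12 of the 34 did, where 25.9% of all did. The lean was not confined to these genes. Of the related lists given below, 9 of 11 genes of ubiquitin, shuttles and Cdc48 and 7 of 8 of the RPN4 list were positive on the TMM scale. Among assembly chaperones 6 of 10 were, and among associated proteins 4 of 7. The median log2 fold change of the 34 genes was 0.07, with quartiles of 0.02 and 0.14, and that of all reading frames tested was 0.003, with quartiles of -0.12 and 0.13. All reading frames had a median of -0.11 on the log2(TPM + 1) scale and the 34 genes one of -0.05, so that the gap between them was 0.06 there and 0.07 on the TMM scale. Leaving out 1 library at a time, that gap ranged from 0.04, without wild-type replicate 1, to 0.11, without wild-type replicate 2.

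Both tDNA-less libraries lay above both wild-type libraries for 17 of the 34 genes, where 22.0% of all reading frames did. The reverse order held for 0 of the 34, where it held for 20.8% of all. The first count was 16 of 34 with DESeq2's size factors (21.5% of all) and 16 of 34 with the 4 most counted reading frames left out (21.6% of all). In deposited TPM it was 1 of 34, where 6.82% of all reading frames did so. The order of the libraries therefore depends on the scale, and wild-type replicate 1 was the lowest of the 4 in the median of the 33 subunits, at -0.06 on the log2 scale relative to the mean of the 4 libraries. On that measure tDNA-less replicates 1 and 2 stood at 0.006 and 0.05 and wild-type replicate 2 at -0.01.

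**Figure D4:**
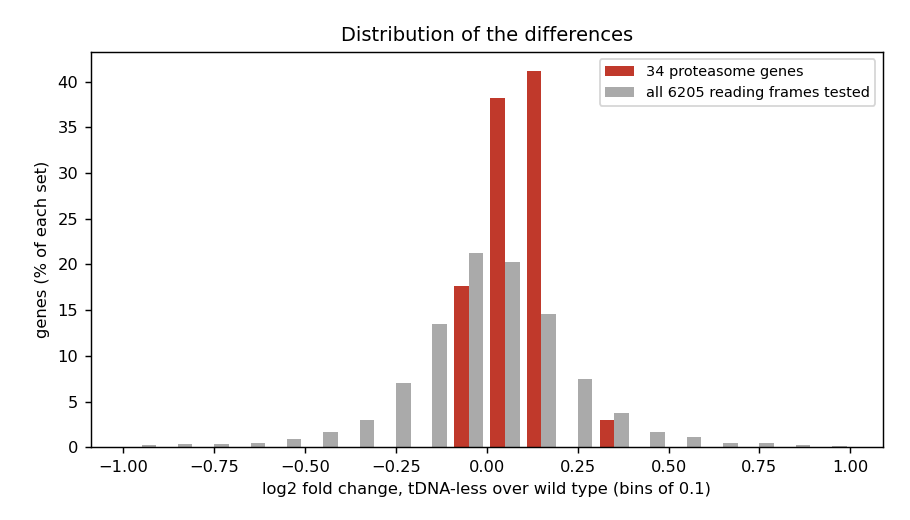
Share of the 34 proteasome genes (red) and of all 6205 reading frames tested (grey) in each bin of log2 fold change, tDNA-less over wild type, between -1 and 1. Of the proteasome genes, 38.2% lie between 0 and 0.1 and 41.2% between 0.1 and 0.2, and SEM1 is the one beyond.

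In the core particle, 13 of 14 genes had a positive log2 fold change on the TMM scale and 6 of 14 on log2(TPM + 1), and 0 were called. The largest was that of PRE3 (YJL001W). It had 70.8 and 74.1 CPM in the tDNA-less libraries and 60.0 and 68.0 CPM in the wild-type libraries. Both tDNA-less values lay above both wild-type values, and the log2 fold change was 0.18 ± 0.09 (SE; edgeR, adjusted p = 0.498). SCL1 (YGL011C) followed with 94.5 and 107 CPM in the tDNA-less strain, against 93.1 and 86.7 CPM in wild type, without overlap; its difference was 0.17 ± 0.09 on the log2 scale (SE; adjusted p = 0.522 in edgeR). Over the 7 alpha genes the median was 0.10, with values from 0.02 for PUP2 to 0.17 for SCL1.

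PUP3 (YER094C) was the one core gene with a negative value, -0.05 ± 0.12 (SE; edgeR, adjusted p = 0.922). It had 110 and 123 CPM in the tDNA-less libraries, both of which lay between the 105 and 137 CPM of the wild-type libraries. PRE2 and PUP1, the subunits with chymotrypsin-like and trypsin-like activity, had log2 fold changes of 0.06 and 0.02. Together with PRE3 they carry the protease sites of the barrel, and the beta ring as a whole had a median of 0.10. PRE9, an alpha subunit that yeast can live without, had 0.03.

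In the base, 7 of 10 genes had a positive value on the TMM scale and 4 of 10 on log2(TPM + 1), and 0 were called. RPT2 (YDL007W), one of the ATPases, had 140 and 143 CPM in the tDNA-less libraries and 128 and 124 CPM in the wild-type libraries, without overlap, and a log2 fold change of 0.17 ± 0.08 (SE; edgeR, adjusted p = 0.437). RPT1, another of the ring, had 0.16, RPT5 0.12 and RPT3 0.02. RPT4 and RPT6 had -0.01 each. The 6 ATPases bind one another in a ring, and their values ranged no wider than from -0.01 to 0.17, with a median of 0.07.

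Among the scaffolds and ubiquitin receptors, RPN1 had 0.14 and RPN2 0.05. These large proteins hold ubiquitin receptors and shuttle factors. RPN10 (YHR200W) had the most negative value of the set, with 124 and 131 CPM in the tDNA-less libraries and 128 and 140 CPM in the wild-type libraries. The ranges overlapped and the log2 fold change was -0.07 ± 0.08 (SE; edgeR, adjusted p = 0.808). RPN13, the other ubiquitin receptor named here, had 0.11.

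In the lid, 8 of 9 genes had a positive value on the TMM scale and 2 of 9 on log2(TPM + 1), and 0 were called. SEM1 (YDR363W-A) had the largest value of the 34 genes, with 70.1 and 71.1 CPM in the tDNA-less libraries and 58.2 and 56.5 CPM in the wild-type libraries. The strains did not overlap, and each pair of replicates lay close together. SEM1 averaged 70.6 ± 0.747 CPM in the tDNA-less strain and 57.3 ± 1.23 in wild type (SD, n = 2 each), a 1.23-fold difference with a log2 fold change of 0.30 ± 0.08 (SE; edgeR, adjusted p = 0.143). DESeq2 gave an adjusted p of 0.401. Of all reading frames tested, 91.8% had a lower log2 fold change than SEM1 or the same. The window of SEM1 held no control element, and the gene lies on chromosome IV (1202128 to 1202397).

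RPN5 (YDL147W), a lid scaffold subunit on chromosome IV (190924 to 192261) with the element shown above, had the second largest value. It had 151 CPM in each tDNA-less library and 131 and 133 CPM in the wild-type libraries, without overlap, and a log2 fold change of 0.19 ± 0.08 (SE; edgeR, adjusted p = 0.342). RPN11, the enzyme that cuts off the ubiquitin chain, had -0.04, with overlapping libraries. RPN9 varied between replicates more than between strains, with 88.1 and 72.6 CPM in the tDNA-less libraries and 85.3 and 69.3 CPM in the wild-type libraries. The remaining lid genes lay between 0.01 for RPN12 and 0.11 for RPN7, and the median of the 9 was 0.05.

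RPN4 (YDL020C), the activator of the set, was its least expressed gene, at 58.0 and 52.8 CPM per kb in the tDNA-less libraries and 58.9 and 56.3 in wild type. In CPM it had 81.3 and 75.3 in the tDNA-less libraries and 83.8 and 80.3 in the wild-type libraries. The ranges overlapped, and the log2 fold change was -0.07 ± 0.08 (SE; edgeR, adjusted p = 0.818), with a 95% interval from -0.26 to 0.12. The counts are of RNA, and the amount of Rpn4 protein was not measured here. The 27 genes with the 9-base element had a median log2 fold change of 0.10 and the 7 without it one of 0.02. These medians are given as a description. SEM1 at 0.30 and RPN10 at -0.07 are both among the 7.

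The other genes of the pathway were taken from 4 lists, and 0 of their 36 genes were called by edgeR, by DESeq2 or by limma on log2(TPM + 1), where 1.50%, 1.89% and 0.838% of all reading frames were. Each list had 1 gene with an unadjusted p under 0.05 in edgeR, where 11.8% of all reading frames did. Of the 10 chaperones that assemble the proteasome, that gene was TMA17, and the median log2 fold change was 0.02. TMA17, which helps the ATPase ring form under stress, had 21.2 and 21.3 CPM in the tDNA-less libraries and 16.9 and 17.7 CPM in the wild-type libraries, and a log2 fold change of 0.29 ± 0.13 (SE; edgeR, adjusted p = 0.408). IRC25, a chaperone of the alpha ring, had 12.2 and 13.0 CPM in the tDNA-less libraries and 15.8 and 14.4 CPM in wild type, and a difference of -0.25 ± 0.16 on the log2 scale (SE; adjusted p = 0.584 in edgeR). Among the 10, both tDNA-less libraries lay above both wild-type libraries for 3 genes and below them for 3, where 22.0% of all reading frames lay above and 20.8% below. In the other lists, described next, 4 of 7 associated proteins lay above and 2 below. Of the 8 genes of the RPN4 list, 3 lay above and 0 below. Of the 11 genes of ubiquitin, shuttles and Cdc48, 6 lay above and 0 below.

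Of 7 proteins that bind the finished proteasome, 1 had an unadjusted p under 0.05, ECM29, which holds core and regulatory particle together. It had 65.6 and 61.4 CPM in the tDNA-less libraries and 50.8 and 48.0 CPM in the wild-type libraries, without overlap. Its log2 fold change of 0.36 ± 0.09 was the largest among the 70 genes of all lists (SE; edgeR, adjusted p = 0.106, and DESeq2, adjusted p = 0.226). With a block on replicate number edgeR called it (adjusted p = 0.0175), where it called 4.54% of all reading frames. Its window held the 9-base element, 131 bases before the start codon. FUB1, the one gene of these lists on chromosome III, had 8.81 and 10.3 CPM in the tDNA-less libraries and 10.9 and 13.2 CPM in wild type, without overlap, with a log2 fold change of -0.34 ± 0.20 (SE; edgeR, adjusted p = 0.546). It lies 21251 bases from the nearest annotated tRNA gene. The median of the 7 was 0.06.

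Among 8 genes that activate RPN4 or take part in the turnover of its protein, 1 had an unadjusted p under 0.05, YAP1, a transcription factor of the oxidative stress response. It had 133 and 123 CPM in the tDNA-less libraries and 114 and 108 CPM in wild type, without overlap, with a log2 fold change of 0.21 ± 0.08 (SE; edgeR, adjusted p = 0.326). UBR2, a ubiquitin ligase for Rpn4 and the gene with the lowest CPM per kb of the 70, had 19.2 and 21.8 CPM in the tDNA-less libraries and 19.8 and 15.4 CPM in wild type. These overlapped, with a difference of 0.24 ± 0.16 on the log2 scale (SE; adjusted p = 0.610 in edgeR), and the median of the 8 was 0.12. Of 11 genes of ubiquitin, shuttle factors and the Cdc48 segregase, DSK2, a shuttle factor, alone had an unadjusted p under 0.05. It had 246 and 270 CPM in the tDNA-less libraries and 221 and 227 CPM in wild type, without overlap, and a difference of 0.20 ± 0.08 on the log2 scale (SE; edgeR, adjusted p = 0.342). NPL4, a Cdc48 cofactor, had 45.7 and 44.5 CPM in the tDNA-less libraries and 40.5 and 41.2 CPM in wild type, without overlap, and a difference of 0.14 ± 0.09 on the log2 scale (SE; adjusted p = 0.601 in edgeR), and the median of the 11 was 0.10. On the log2(TPM + 1) scale the medians of these 4 lists were all negative.

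**Figure D5:**
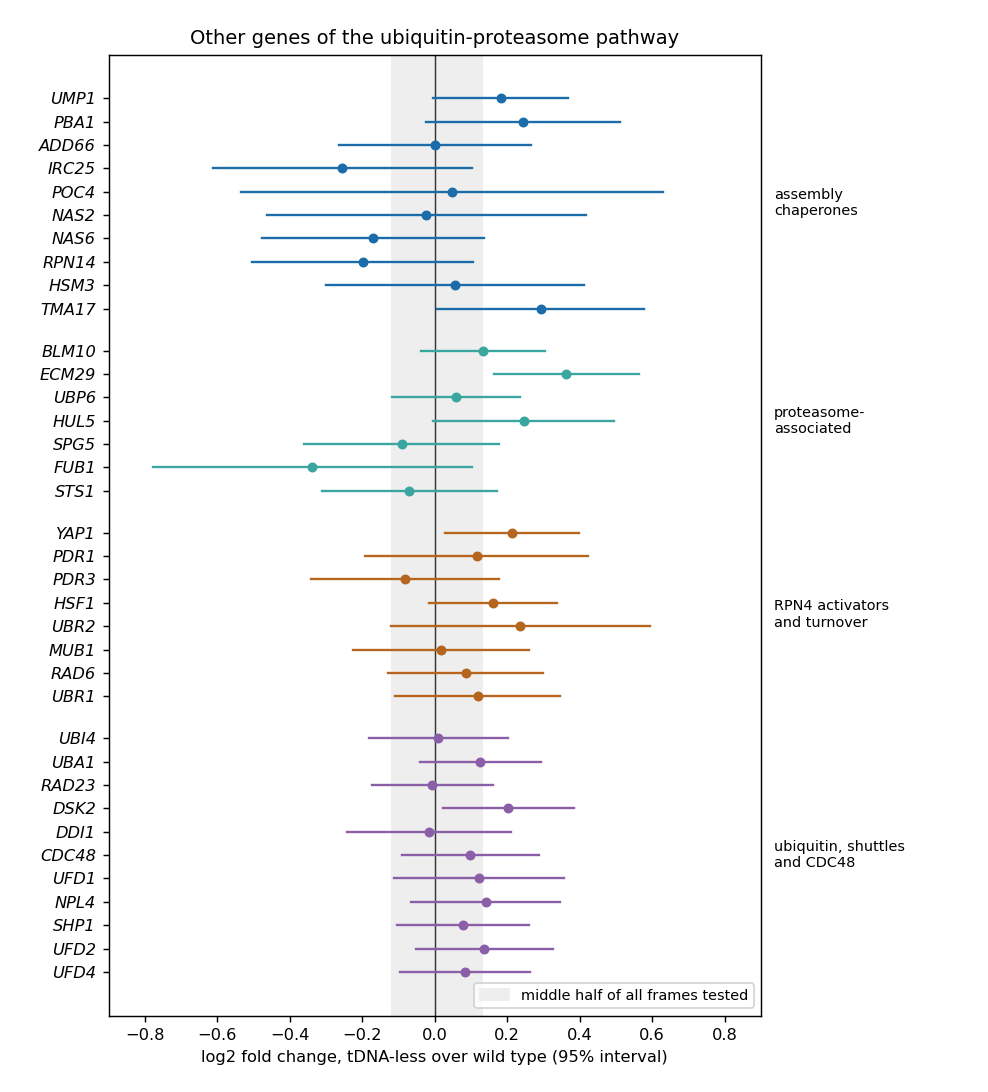
Log2 fold change, tDNA-less over wild type, of the 36 other genes of the ubiquitin-proteasome pathway (points) with 95% intervals from edgeR's quasi-likelihood fit (lines), by list; the grey band runs between the quartiles of all reading frames tested. ECM29 at 0.36 is the highest and FUB1 at -0.34 the lowest, and the intervals are widest for genes with few estimated counts.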

How the data were processed

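Total RNA of untreated yeast in early log phase was sequenced from directional libraries, 2 for each of 2 strains. Per the submitters' processing notes, kallisto, sleuth and the sacCer3 build were used, with settings and versions not given in the sources used here. In each library the deposited table holds estimated counts, effective lengths and TPM for 6706 reading frames, as the authors' quantification wrote them. Gene models whose lengths were multiples of 3 (100.0%) hold no UTRs.

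The estimated counts were rounded to whole numbers and tested with edgeR 4.0.16 in R 4.3.3 (TMM scaling, filterByExpr with a minimum count of 10, quasi-likelihood test, Benjamini-Hochberg adjustment over 6205 reading frames, adjusted p under 0.05). The p-values set each difference against a spread between these libraries that the model shares across reading frames. They do not cover variation between strains of the same kind. Fold changes are tDNA-less over wild type. The biological coefficient of variation was 9.82%, and the precision at depths of 12.48 M to 19.76 M counts is given by the intervals. Alternatives were DESeq2 1.42.0, its size factors, limma 3.58.1 on log2(TPM + 1), other filters, the 4 reading frames with most counts left out, each library left out and a block on replicate number. The test was tried first on simulated data with known changes and a single spread for all reading frames. The share of changes recovered is not given here.

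Symbols, positions and promoter windows came from the RefSeq R64 genome (sacCer3), with all 70 genes of the lists matched. Values were given in full for the 3 largest differences in each direction, RPN4, called genes, and the lowest and highest level of each subcomplex. In other lists they were given for the called genes or else the 2 largest differences, and the remaining values in the text were chosen after they were seen. Members and lists were chosen with earlier results of these data known.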

Additional observations from a re-analysis of the deposited data

How the results depend on the processing

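The 2 libraries per strain limit all of these results, and leaving 1 out leaves a strain with a lone library that is assumed to vary like the others. The count of called reading frames, 93, ranged from 21 (without tDNA-less replicate 1) to 91 when each library was left out, and was 30 without tDNA-less replicate 2. It was 52 by limma on log2(TPM + 1) and 282 with a block on replicate number. With that block 1 proteasome gene was called, SEM1 (adjusted p = 0.0391; from 0.0391 to 0.677 over its 11 alternatives), and 1 associated protein, ECM29 (adjusted p = 0.0175). Deviations of same-numbered libraries correlated at 0.267 over 6205 reading frames and at 0.457 over the 34 genes. With only 2 pairs, the numbers were not taken to pair the samples. In the other alternatives 0 of the 34 genes were called.

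On log2(TPM + 1), where the median of all reading frames was -0.11, the median log2 fold changes were -0.0494 for the 34 genes, -0.0204 for the alpha ring, -0.0238 for the beta ring, -0.0637 for the ATPases, -0.0449 for scaffolds and receptors, -0.0859 for the lid, -0.0905 for chaperones, -0.0758 for associated proteins, -0.0197 for the RPN4 list and -0.0411 for ubiquitin and Cdc48. There 16 genes turned negative: PRE9 (-0.0912), PRE6 (-0.0204), PUP2 (-0.105), PRE5 (-0.0409), PUP1 (-0.100), PRE2 (-0.0579), PRE7 (-0.0238), RPT3 (-0.113), RPT5 (-0.0143), RPN2 (-0.0924), RPN3 (-0.112), RPN6 (-0.0859), RPN7 (-0.0174), RPN8 (-0.113), RPN9 (-0.0739) and RPN12 (-0.110). The cause was not tested.

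With each library left out in turn, the median of the 34 genes ranged from 0.0442 to 0.109, the alpha ring from 0.0174 to 0.173, the beta ring from 0.00471 to 0.152, the ATPases from 0.031 to 0.0986, scaffolds and receptors from 0.0562 to 0.0783, the lid from -0.0187 to 0.116, chaperones from -0.0300 to 0.0716 and the RPN4 list from 0.0175 to 0.201. There 14 genes changed sign in at least 1 case: PRE9 (-0.00418 to 0.0573), PUP2 (-0.0733 to 0.102), PRE5 (-0.031 to 0.173), PUP1 (-0.0231 to 0.058), PUP3 (-0.231 to 0.152), PRE2 (-0.0116 to 0.142), PRE7 (-0.00848 to 0.193), RPT4 (-0.0746 to 0.0446), RPT6 (-0.0772 to 0.0563), RPN3 (-0.0494 to 0.0924), RPN8 (-0.0286 to 0.055), RPN9 (-0.0892 to 0.204), RPN11 (-0.0848 to 0.00402) and RPN12 (-0.0954 to 0.116). Over all 11 alternatives, 14 of the 34 kept their sign.

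Chosen after seeing the data, leaving out SEM1 gave a regulatory-to-core ratio of 0.638 in the tDNA-less strain and 0.656 in wild type. The count of genes with both tDNA-less libraries above both wild-type libraries was 1 in deposited TPM.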

Other observations

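Of the 34 proteasome genes, 21 share their upstream stretch with a gene read in the other direction, and 13 follow a gene read in the same direction. The genes of these 21 pairs lay a median of 389 bases apart. Of the 20 upstream neighbours that were tested, 17 had a lower level per kb than the proteasome gene beside them. The subunits lay between the 75.4th and the 95.4th percentile of level, so most reading frames lay below them. The median log2 fold change of the neighbours, tDNA-less over wild type, was 0.01, and 10 of the 20 were positive. The proteasome genes beside them had a median of 0.06. A single neighbour of the 20 was called, where 1.50% of all reading frames were: ENO1, a glycolytic enolase upstream of PUP2 at a distance of 1786 bases. Its log2 fold change was 0.54 ± 0.08 (SE; edgeR, adjusted p = 0.0124), and PUP2 had 0.02. The call of ENO1 was lost on log2(TPM + 1) (limma, adjusted p = 0.423), without tDNA-less replicate 1 (adjusted p = 0.261 in edgeR) and without tDNA-less replicate 2 (adjusted p = 0.329 in edgeR). Of the 1284 words of 31 bases in the ENO1 reading frame, 498 were also found in another reading frame, and its estimated counts were not whole in any of the 4 libraries.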
